A study of Mus musculus with 9 samples.

Results

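The bulge time course follows sorted hair follicle bulge cells of the mouse through the second resting phase (telogen) of the hair cycle. It held 3 arrays, chosen by the population and age in the sample labels, out of 9 in the series. The bulge arrays came from postnatal day 43 (P43, early telogen), day 56 (P56, middle telogen) and day 69 (P69, late telogen), with 1 array per day. Hair germ cells and dermal papilla cells of the same 3 days, again with 1 array each, served as the comparison. All mice were virgin CD1 females weaned at day 21 and carried both Lef1RFP and K14H2BGFP, in which Lef1 drives a red protein and keratin 14 a green histone. Back skin was digested with collagenase and then trypsin, and the labels give bulge as RFP(-) GFP(+) CD34(+) with low P-cadherin, hair germ as RFP(-) GFP(+) CD34(-) with high P-cadherin, and dermal papilla as RFP+ GFP- cells sorted away from CD45, CD117 and integrin alpha 7, and by their titles from CD34. How many mice were pooled for an array, and whether 1 set of mice gave all populations on a day, is not given in the sources used here.

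The bulge is the part of the resting follicle below the sebaceous gland, and it houses slow-cycling epithelial stem cells marked by CD34 and keratin 15. Beneath it lies the hair germ, a small cluster of cells next to the dermal papilla, which is the first epithelium to respond when a new growth phase begins. Bone morphogenetic proteins (BMP) and FGF18 are known to hold bulge cells at rest, and WNT, FGF and BMP-blocking signals are known to precede regrowth. Bulge cells are the later responders. The comparisons below ask how much the bulge transcriptome differed between days of telogen, and which genes set the P69 array apart from both earlier ones.

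Levels are given as log2(signal + 16), where a signal of 0 reads as 4 and a difference of 1 is a 2-fold difference. A gene counted as measured when one of its probe sets exceeded the median of its own array on 3 or more of the 9 arrays, and 7796 genes did. Median signals of the bulge arrays were 42.4, 39.9 and 43.4 at P43, P56 and P69. Ratios of 3' to 5' Gapdh signal, a measure of RNA length after amplification, were 4.46, 5.09 and 3.96 in bulge on these days, and spanned 2.97 to 8.34 for hair germ and 3.77 to 6.62 for dermal papilla. Cd34, the surface protein of the bulge sort, read 11.60, 11.77 and 11.70 in bulge, with maxima of 5.72 among hair germ arrays and 5.69 among dermal papilla arrays, so the label and the sort marker matched on each day. Krt14, the keratin whose promoter drives the green histone, read 10.70, 10.80 and 11.25 in bulge. The probe set of Cdh3 (P-cadherin), the other sort marker, lay too low to be measured.

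Bulge differed little between days. A gene counted as 2-fold apart where the higher array of the pair also exceeded its own median. Between P56 and P43, 44 of 7796 genes (0.564%) were at least 2-fold apart, 16 higher and 28 lower at P56. P69 against P43 gave 202 genes (2.59%), 115 higher and 87 lower, and P69 against P56 gave 265 genes (3.4%), 156 higher and 109 lower. The earlier days were therefore the closest pair, and P69 was the array farther from both. Pearson's r across genes, which are not independent replicates, was 0.985 for P56 and P43, 0.971 for P69 and P43, and 0.965 for P69 and P56. The median absolute difference per gene was 0.165, 0.222 and 0.259 log2 units for the same pairs.

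Fewer genes were apart between days in bulge than in either neighbouring population. Over the 3 days, 7395 genes (94.9%) stayed within a 2-fold range in bulge, against 5839 (74.9%) for hair germ and 6631 (85.1%) for dermal papilla. Bulge had 22 genes with a range above 4-fold, hair germ 163 and dermal papilla 96. Genes that set P69 at least 2-fold apart from both earlier days were 120 for bulge (1.54%), 339 for hair germ (4.35%) and 134 for dermal papilla (1.72%). With 1 array per day these gaps have no replicate check, and array quality differed too: Gapdh ratios spread over 2.97 to 8.34 in hair germ and over 3.96 to 5.09 in bulge. The part of array quality in the gap was not tested.

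**Figure D1:**
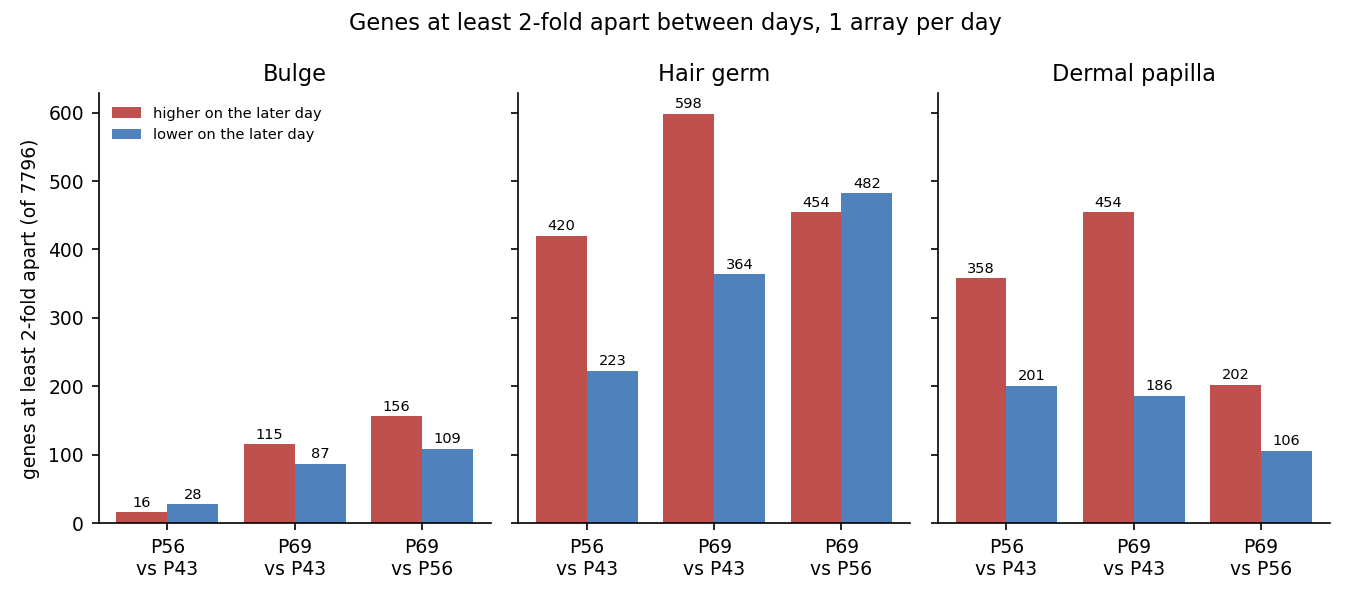
Number of genes (y axis) at least 2-fold apart between each pair of days (x axis) in bulge, hair germ and dermal papilla, with bars for genes higher (red) and lower (blue) on the later day. Bulge has 16 and 28 genes for P56 against P43, and its counts for P69 reach 156 and 109, below the 454 and 482 of hair germ for the same pair.

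Genes that define the bulge varied between days about as much as other genes. All 26 genes of a bulge stem cell list were measured, and 23 stayed within 2-fold over the 3 days, beside 7395 of 7796 genes tested (94.9%). The median range over the days was 0.38 log2 units for the list and 0.35 for all genes. Their median P69 difference, taken against the mean of both earlier days, was 0.02, beside 0.012 for all genes tested. Krt15, a keratin of the stem cell compartment, read 13.01, 13.23 and 12.96 at P43, P56 and P69. Lhx2, a transcription factor that maintains bulge identity, read 10.64, 10.64 and 10.59. Sox9, another stem cell regulator, read 9.24, 8.80 and 9.50. Krt15 and Lhx2 thus varied by less than 0.3 log2 units, and Sox9 by 0.70. Lgr5, a receptor for R-spondins found on lower bulge and hair germ cells, read 9.51, 9.72 and 9.44. Hopx, Foxc1, Tbx1, Nfib, Postn, Col17a1 and Ltbp2 all had ranges below 0.5 log2 units.

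Vdr, Dkk3 and Fgf18 were the 3 markers outside a 2-fold range. Fgf18, the growth factor that prolongs telogen, read 11.11, 11.31 and 10.19, and was 1.02 log2 units lower at P69 than the mean of P43 and P56. Vdr, the vitamin D receptor needed for follicle cycling, read 9.15, 9.29 and 10.27. Dkk3, a secreted protein of the Dickkopf family, read 8.93, 9.17 and 10.26. The last of these was the only list member at least 2-fold apart from both earlier days, beside 1.54% of all genes. Nfatc1, a transcription factor that keeps bulge cells quiescent downstream of BMP, read 10.43, 10.57 and 9.78, a difference of -0.72 that stayed within 2-fold. Gene lists here were chosen with results of these arrays known, so their counts describe these arrays only.

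**Figure D2:**
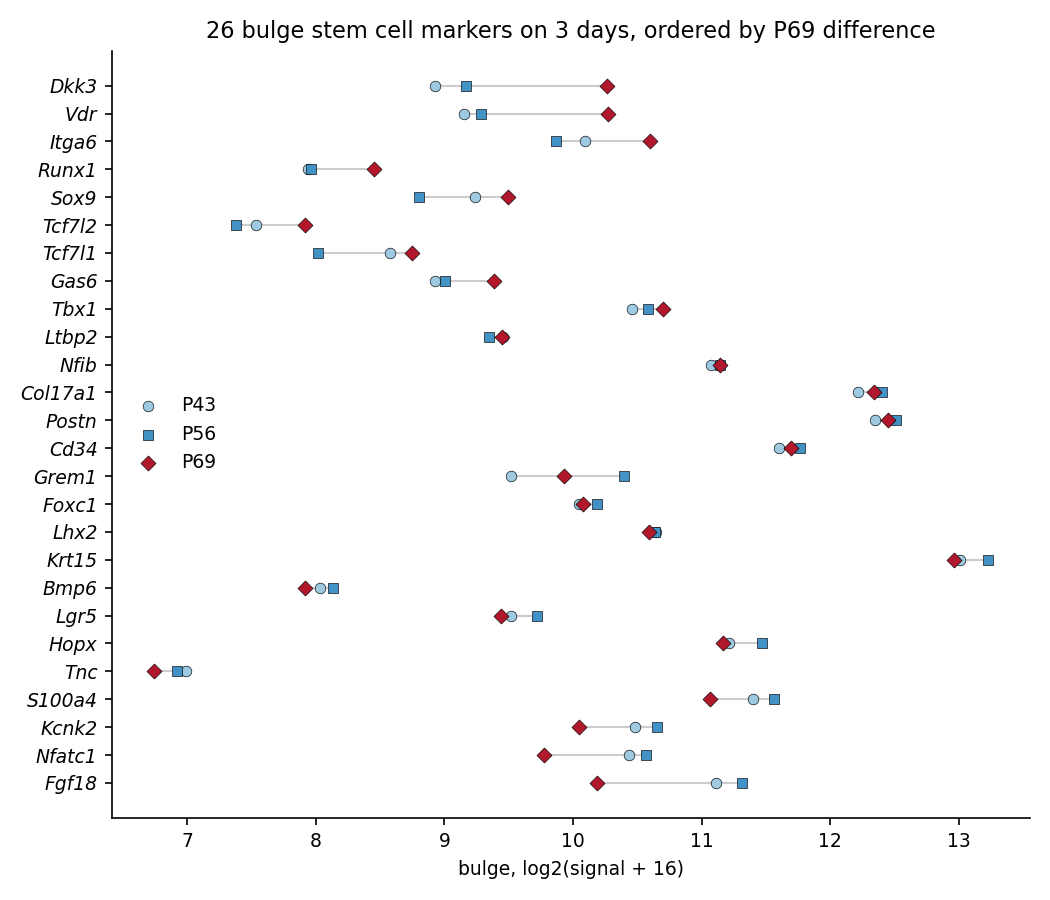
Levels of 26 bulge stem cell markers in bulge as log2(signal + 16) (x axis) at P43 (circles), P56 (squares) and P69 (diamonds), ordered from the highest P69 difference (Dkk3, top) to the lowest (Fgf18, bottom). For 23 genes the 3 points lie within 1 log2 unit.

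At P69, 120 of 7796 genes (1.54%) were at least 2-fold apart from both earlier days. Of these, 68 (0.872%) were higher and 52 (0.667%) were lower. The P69 array also had the lowest 3' to 5' ratios of the bulge arrays, 3.96 for Gapdh and 5.01 for actin, and their part in these counts was not tested. By comparison 20 genes (0.257%) set P56 apart from its neighbours in this way, and 6 (0.077%) set P43 apart. The genes higher at P69 included Glul (glutamine synthetase) and 7 other genes of a glucocorticoid response list, among them Errfi1, and also Spred2, Txnip, Adh7, Ctsl and Gclc. Those lower included Stfa3, Cst6, Gdf10 and H2ac19.

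To test single genes, limma was fitted to all 9 arrays with population, day and a term for bulge at P69. Each group had 1 array, so the spread, with 3 residual degrees of freedom, came from how differently the populations changed between days. The lone bulge P69 array was assumed to vary like the rest. One gene passed a Benjamini-Hochberg adjusted p of 0.05 in this fit (0.0128% of genes tested), and 226 had an unadjusted p below that value. Glul was that gene, with an estimate of 3.53 log2 units (SE 0.37, limma adjusted p = 0.017). Errfi1 came next with 2.44 (SE 0.33, limma adjusted p = 0.0826), which missed the threshold. No other gene of the 120 had a limma adjusted p below 0.567. The count rests on how the spread is taken: with the bulge arrays alone, P43 and P56 as the earlier group, 374 genes (4.8%) passed, and with the mean of all probe sets per gene none did. Without the dermal papilla P43 array 2 genes passed, Glul and Errfi1.

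**Figure D3:**
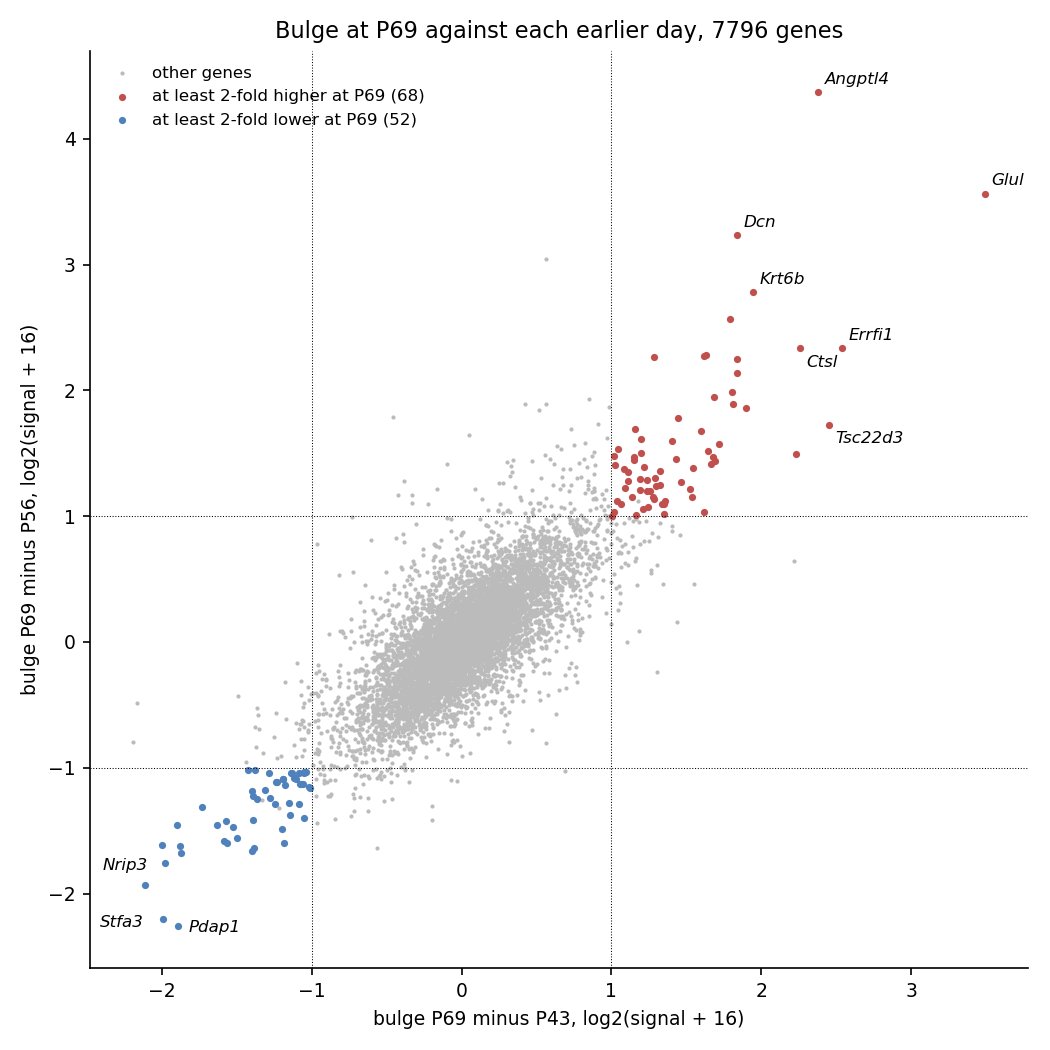
Each point is 1 gene, with its bulge P69 minus P43 difference (x axis) and its bulge P69 minus P56 difference (y axis), both in log2(signal + 16). Dotted lines mark 2-fold, 68 genes (red) lie above both upper lines and 52 (blue) below both lower lines; the axes share the P69 array, so points follow the diagonal by construction. A few grey points past both lines, 3 genes, had their higher array below its median and were not counted. Glul lies farthest out on the x axis and Angptl4 on the y axis.

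Glul, which makes glutamine from glutamate and ammonia, read 6.93 at P43, 6.86 at P56 and 10.42 at P69 in bulge. The earlier days were thus within 0.07 of each other, and P69 stood 11.5-fold above their mean on this scale. A second, dimmer probe set read 4.78, 4.64 and 7.13. In hair germ Glul read 9.62, 9.53 and 10.03, and in dermal papilla 7.56, 8.20 and 7.79, so neither was 2-fold apart at P69. The bulge difference minus the mean difference of the other populations was 3.34 (SE 0.45, limma adjusted p = 0.168), which did not pass.

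Glul is induced by glucocorticoids in many tissues, as are Tsc22d3, Fkbp5, Per1, Sgk1 and others of the glucocorticoid response list. These steroid hormones bind the receptor Nr3c1, which then enters the nucleus and binds DNA at paired hexamers. Of 19 measured genes on the list, 8 were at least 2-fold above both earlier days, beside 0.872% of all genes, and none was 2-fold below both. The list was chosen with results of these arrays known. Glul and Tsc22d3, counted among the 8, were also marker genes given with this time course. The counts therefore describe these arrays and do not test the list. The median difference of the list was 0.95, beside 0.012 for all genes, and 17 of 19 were above 0, beside 4011 of 7796 genes. Between P56 and P43 its median difference was -0.02, near the 0.003 of all genes. Glul was the only member that passed the limma fit.

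Tsc22d3, the glucocorticoid-induced leucine zipper protein that restrains inflammatory signalling, read 5.24, 5.97 and 7.70. Its other probe sets were also higher at P69, at 5.85, 6.0 and 9.12 for one and 6.33, 5.93 and 7.12 for the other. The latter was less than 2-fold above P43. Fkbp5, a co-chaperone that lowers the hormone affinity of the receptor, read 5.68, 5.38 and 7.52. Both had low signals on the earlier days and clear ones at P69. Klf9, a transcription factor induced by both glucocorticoid and thyroid hormones, read 11.07, 11.02 and 12.31. Cebpd, a transcription factor of the acute phase response, read 9.15, 9.08 and 10.75. Zbtb16, known as PLZF, read 6.33, 6.50 and 7.57 by its brightest probe set and 5.74, 5.61 and 6.29 by the other. By its brightest probe set, each of these 3 transcription factors had P43 and P56 values within 0.2 of each other. The P69 value of that probe set was more than 1 unit higher.

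Other members of the list differed less. Cdkn1a, the cell cycle inhibitor p21, read 9.78, 9.68 and 10.73. The metallothionein Mt1 read 10.44, 10.75 and 11.53, and Sgk1, a kinase that regulates ion transport, read 11.63, 11.35 and 12. Per1, a clock gene with a glucocorticoid response of its own, read 8.58, 8.32 and 9.04. Nr3c1, the receptor itself, read 10.19, 10.27 and 10.34, and so stayed nearly level. Nfkbia and Ddit4 were the 2 members not above 0, at -0.06 and -0.03. The median P69 difference of the same list was 0.62 in hair germ, where the median of all genes was 0.089, and 0.42 in dermal papilla, where it was 0.05. Whether the bulge value exceeds the others was not tested for the list.

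**Figure D4:**
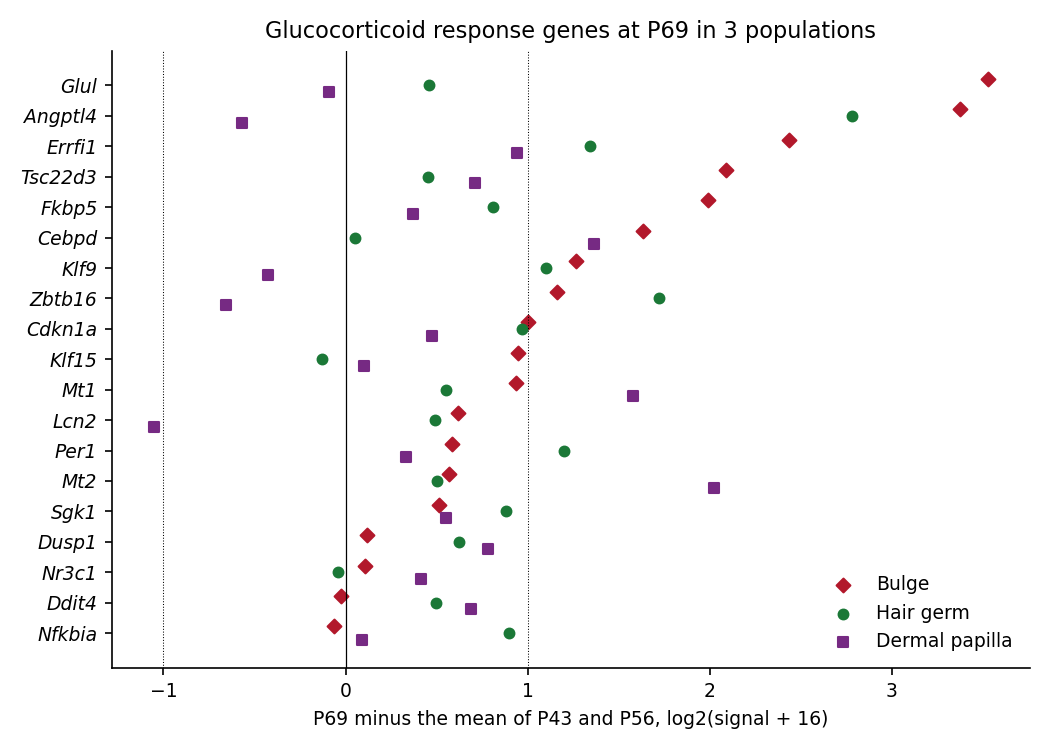
P69 minus the mean of P43 and P56 in log2(signal + 16) (x axis) for 19 glucocorticoid response genes in bulge (red diamonds), hair germ (green circles) and dermal papilla (purple squares), 1 array per day, with dotted lines at 2-fold. In bulge, 17 of 19 points lie above 0, from Nfkbia at -0.06 to Glul at 3.53.

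Because these genes were higher on the same array, their promoters were searched for the receptor's motif, and the windows are shown where the letters were found. RefSeq promoter sequences (GRCm38.p6, 250 bases before to 50 after each annotated start) were at hand for 15 of the 19 genes. The full palindrome, in which the hexamer AGAACA is followed by any 3 bases and its reverse complement TGTTCT, was searched on both strands. It was found in 1 of 15, Sgk1, which was also the 1 match among 6359 measured genes with a promoter (0.0157%). All 27025 symbols gave 3 matches (0.0111%). So few matches allow no comparison of shares. The hexamer AGAACA, which the palindrome contains, was found on either strand in 2 of 15 (13.3%), beside 14.5% of measured genes and 21.3% of all symbols. Among genes at least 2-fold higher at P69, 12 of 46 with a promoter held the hexamer (26.1%), against 7 of 39 genes lower at P69 (17.9%), and none of either set held the palindrome. The E-box CACGTG, the binding letters of clock and Myc family factors, lay in 5 of 15 genes of the list (33.3%), in 6 of 46 of the higher genes (13.0%) and in 2 of 39 of the lower genes (5.13%), beside 12.5% of measured genes. A match is a description of the letters and not a binding site. The 3 windows below are those of Sgk1 with the palindrome in capitals (chr10:21993671-21993745, plus strand), Tsc22d3 with a hexamer in capitals read on the opposite strand (chrX:140600672-140600737, minus strand) and Fkbp5 with its E-box in capitals (chr17:28486283-28486348, minus strand), each 5′ to 3′ along the gene.
Sgk1: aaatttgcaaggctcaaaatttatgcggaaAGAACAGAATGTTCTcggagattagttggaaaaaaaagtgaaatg
Tsc22d3: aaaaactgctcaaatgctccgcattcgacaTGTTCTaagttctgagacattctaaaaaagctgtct
Fkbp5: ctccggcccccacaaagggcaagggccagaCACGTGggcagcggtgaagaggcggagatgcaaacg
Tsc22d3 and Fkbp5 were among the members higher at P69, whereas Sgk1, which holds the palindrome, was 0.52 above the earlier days.

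Of 13 measured fasting and fatty acid handling genes, Angptl4 and Txnip were 2-fold above both earlier days, beside 0.872% of all genes, and 12 were above 0, beside 4011 of 7796. The median difference of the list was 0.77, beside 0.012 for all genes, and no member passed limma. Angptl4, a secreted inhibitor of lipoprotein lipase, read 7.08, 5.09 and 9.46, so that P56 was the lowest day and P69 the highest. Txnip, which binds thioredoxin and limits glucose uptake, read 10.79, 10.53 and 12.48. Cpt1a, which brings long-chain fatty acids into mitochondria, read 8.09, 7.44 and 9.06, and was less than 2-fold above P43. Angptl4 and Klf15 stand on the glucocorticoid list as well. Hair germ had a median of 1.01 for the list and dermal papilla 0.05.

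The cholesterol and fatty acid synthesis lists had medians below 0. Of 17 cholesterol synthesis genes, 3 were above 0, beside 4011 of 7796 genes, with a median of -0.22, beside 0.012 for all genes. Sqle, the squalene epoxidase of that pathway, read 8.09, 8.08 and 7.04. It was the 1 member 2-fold below both earlier days, beside 0.667% of all genes. Scd2, a fatty acid desaturase, read 6.95, 6.86 and 5.82. It was the 1 of 12 fatty acid synthesis genes 2-fold below both. That list had a median of -0.29, and 4 of the 12 were above 0. None of these members passed limma.

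Of 15 measured FGF ligands, receptors and feedback genes, Spred2 and Errfi1, which is on the glucocorticoid list as well, were 2-fold above both earlier days, beside 0.872% of all genes. The list's median difference was 0.31, beside 0.012 for all genes, and 10 of 15 were above 0, beside 4011 of 7796. No member passed limma. Fgf18, given above, was the 1 member at least 2-fold lower than the mean of the earlier days, at -1.02. Errfi1, the feedback inhibitor of the EGF receptor, read 8.51, 8.71 and 11.05, and its other probe set read 4.98, 5.54 and 7.15. Spred2, which blocks the Ras to MAP kinase step, read 6.85, 7.11 and 8.21. Dusp6, the phosphatase that inactivates ERK, read 5.80, 5.40 and 6.65, and was less than 2-fold above P43. Errfi1 also averaged 1.57 higher at P69 over all 3 populations, in a fit with population and day as additive terms (SE 0.26, limma adjusted p = 0.313), which did not pass.

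Other genes with large differences at P69 had varied functions, and no shared theme among them was tested. Ctsl, a lysosomal cysteine protease, read 8.99, 8.92 and 11.25. Slc6a6, the taurine transporter, read 9.36, 8.95 and 11.20. Adh7, an alcohol dehydrogenase that also oxidises retinol, read 7.73, 6.96 and 9.52. All 3 were well above background on every day and stood more than 1.7 units above each earlier array. Gclc, the catalytic subunit of the first enzyme of glutathione synthesis, read 7.20, 7.18 and 8.33. It was the 1 of 16 measured metallothionein and antioxidant genes that was 2-fold apart from both earlier days, beside 1.54% of all genes. Of the 16, 8 were above 0, beside 4011 of 7796 genes, and the list's median difference was 0.05, beside 0.012. St3gal2, a sialyltransferase, read 6.25, 6.17 and 8.06. Fam13c read 5.50, 5.32 and 7.31, and Angptl7, a secreted angiopoietin-like protein, read 6.34, 6.38 and 8.24. Angptl7 stayed below 5 on every hair germ and dermal papilla array. Krt6b, a keratin of the inner bulge layer, read 4.96, 4.12 and 6.91, while its near-identical partner Krt6a read 12.04, 12.04 and 12.01, and a probe set may not fully separate the copies.

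**Figure D5:**
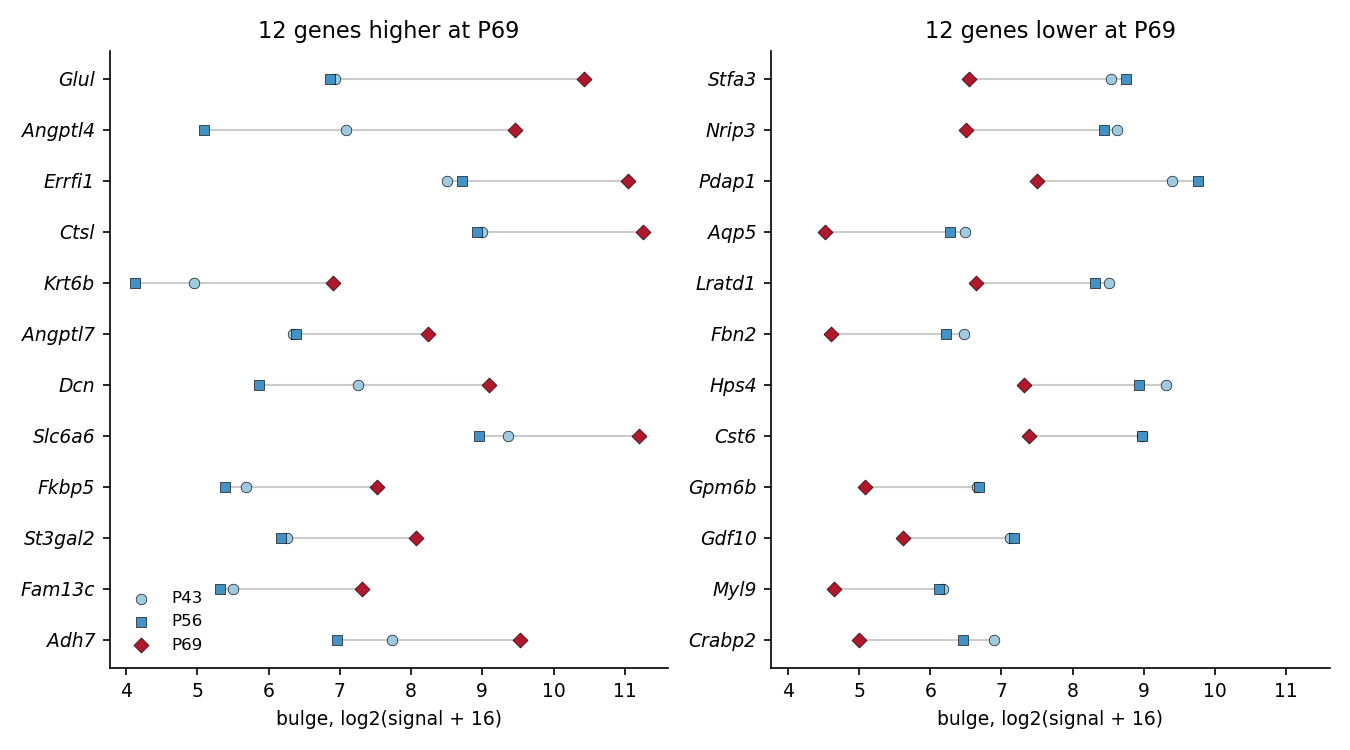
Levels in bulge as log2(signal + 16) (x axis) at P43 (circles), P56 (squares) and P69 (diamonds) for the 12 genes farthest above (left panel) and the 12 farthest below (right panel) both earlier days. The P69 point lies to the right of both others for each gene at left and to the left of both for each gene at right.

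None of 25 measured integrin, laminin and matrix genes was 2-fold apart from both earlier days, and the median difference of that list was 0.20. Dcn, Mmp2 and Timp3, matrix genes picked from the higher ones after their values were seen, were 2-fold above both. Dcn, a proteoglycan of dermal collagen, read 7.26, 5.86 and 9.10. Col3a1, a dermal collagen chain, read 7.63, 5.15 and 8.20, so its departure was a low P56 array more than a high P69 one. Mmp2, a gelatinase, read 8.07, 7.73 and 9.51. Timp3, a metalloproteinase inhibitor, read 6.29, 6.44 and 7.57. Of 12 dermal fibroblast markers measured, 10 were above 0, beside 4011 of 7796 genes, and the median difference was 0.50, beside 0.012. Of these markers 1 (Dcn) was 2-fold above both earlier days, beside 0.872% of all genes. Their summed signal in bulge was 9.99, 9.65 and 10.83 on the log2 scale at P43, P56 and P69. Against the mean of the earlier days, 3 of the 12 were at least 2-fold higher and 0 were 2-fold lower, beside 130 and 78 of 7796 genes. Prrx1, Fap and Pdgfra, picked from this list after their values were seen, read between 4.63 and 5.41 on all 3 days, below the median of each bulge array. These dim members do not stand for the list, in which 10 of 12 were above 0. Of its brighter members, Dcn and Col3a1 are given above, and Col1a2 read 8.33, 7.21 and 8.63. The part of RNA from dermal cells in Dcn, Mmp2 and Timp3 was not tested. In bulk samples a change in the share of a cell type and a change in RNA per cell cannot be told apart.

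No measured marker of leukocytes, melanocytes, suprabasal epidermis, endothelium, muscle or fat was 2-fold apart from both earlier days. Among leukocyte markers 6 of 13 on the array were measured, with summed signals of 9.40, 9.63 and 9.63 log2 units at P43, P56 and P69, and Ptprc (CD45) read 7.01, 7.33 and 7.18. Suprabasal epidermis markers had a median difference of -0.31, and Krt10 read 11.80, 11.38 and 10.73. Of the endothelial, muscle and adipocyte lists 2 genes each were measured, and the summed adipocyte signal was 5.94, 5.85 and 6.93 log2 units. Median levels of these lists at P43 were 4.85, 5.44 and 5.18, which left little room for a fall to be counted.

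Of the 52 genes lower at P69, none passed limma. Stfa3, a cystatin that inhibits cysteine proteases, read 8.54, 8.75 and 6.55, and belongs to a family of near-identical copies that a probe set may not separate. Cst6, a cystatin of the upper follicle, read 8.97, 8.98 and 7.39. Defb6, a defensin on the same sebaceous and upper follicle list, read 9.11, 8.63 and 7.67, and the list's other 7 measured genes were less than 2-fold apart by the mean of the earlier days. That list had a median difference of 0.12, beside 0.012 for all genes, of which 78 of 7796 were at least 2-fold lower by that mean.

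Nrip3, a nuclear receptor-interacting protein, read 8.62, 8.44 and 6.50. Aqp5, a water channel of glands, read 6.50, 6.27 and 4.52. Lratd1 read 8.51, 8.32 and 6.64, and Hps4, a subunit of the complex that builds melanosomes and other lysosome-related organelles, read 9.31, 8.93 and 7.32. These 4 had close values on the earlier days and lay at least 1.6 units lower at P69. Gpm6b, a membrane glycoprotein, read 6.65, 6.68 and 5.08. Fbn2, a fibrillin of elastic fibres, read 6.48, 6.22 and 4.60. Myl9, a myosin light chain of contractile cells, read 6.18, 6.12 and 4.66. Crabp2, a carrier of retinoic acid, read 6.89, 6.46 and 5.0. Fbn2, Aqp5 and Myl9 came close to the reading of 4 that a signal of 0 gives, which bounds their differences.

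Genes with several probe sets allowed a second reading of these differences. Among higher genes, 28 had other kept probe sets, 36 in all, and each of the 36 was also higher against both days, 25 of them by 2-fold. Among lower genes, 18 had 23 other probe sets, of which 15 were also lower against both days and 3 were so by 2-fold. Pdap1, named for its binding to platelet-derived growth factor, read 9.40, 9.76 and 7.50 by its brightest probe set and 8.79, 8.77 and 8.57 by the other. Fen1, the flap endonuclease of DNA replication, read 9.78, 9.81 and 8.39 by one and 5.21, 5.45 and 6.0 by the other, which runs the opposite way.

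Signals that govern the hair cycle were searched one family at a time. Among 6 BMP ligands Gdf10, a divergent member of the family, was the one at least 2-fold below both days, beside 0.667% of all genes. It read 7.11, 7.17 and 5.62, and the list's median difference was -0.22, beside 0.012 for all genes. Bmp2 and Bmp6, which restrain the bulge, read 8.28, 7.67 and 7.38 for Bmp2 and 8.03, 8.13 and 7.92 for Bmp6. None of the 12 measured BMP antagonists and none of the 13 response genes was 2-fold apart from both earlier days, with median differences of 0.07 and 0.02. Grem1, a secreted BMP blocker, read 9.52, 10.39 and 9.93. Gdf10 was thus the one BMP gene measured here that stood 2-fold apart.

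Among hedgehog genes 1 was 2-fold apart in each direction. Ptch1, the receptor and direct target of the pathway, read 8.82, 8.80 and 9.83. Gli2, its transcriptional activator, read 8.68, 8.75 and 9.55. Hhip, a decoy that binds hedgehog ligands and is itself a target, read 6.34, 6.09 and 5.05. Of 8 measured genes, Ptch1 was 2-fold above both days, beside 0.872% of all genes, and Hhip 2-fold below both, beside 0.667%. The list's median difference was 0.30, beside 0.012 for all genes. In dermal papilla Ptch1 read 8.94, 8.43 and 11.05 and Hhip 6.71, 6.88 and 8.23.

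None of 16 measured WNT ligands and receptors and none of 15 target genes and TCF factors was 2-fold apart, with median differences of -0.08 and -0.02. Wnt4 read 8.99, 8.82 and 8.31. Fzd7, a WNT receptor abundant in bulge, read 11.26, 11.31 and 10.82. Among 10 antagonists, Dkk3 was the member 2-fold above both earlier days, beside 0.872% of all genes. Wif1, which sequesters WNT ligands, read 6.08, 6.49 and 7.30. Jag1, a Notch ligand, read 6.56, 5.75 and 7.32, and none of 11 Notch genes was 2-fold apart from both earlier days. Igfbp6 read 6.81, 6.57 and 7.92 and Igfbp3 read 10.50, 10.65 and 9.49, so that these binding proteins of insulin-like growth factors ran in opposite directions.

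None of 24 mitosis genes was 2-fold apart from both earlier days at P69, and their median difference was 0.19. Over the 3 days 22 of them stayed within 2-fold, beside 94.9% of all genes, and their median range was 0.51 log2 units, beside 0.35. Their median levels were 5.26, 5.15 and 5.39 at P43, P56 and P69, where all genes had 7.61, 7.64 and 7.63, and Cdk1, the kinase that starts mitosis, read 5.63, 5.36 and 6.02. Many of them thus lay below the median of the bulge arrays, where a lower level at P69 could not be counted. The filter for measured genes takes in all 9 arrays. Of 18 DNA replication genes, Fen1 alone was 2-fold lower, by one of its probe sets, beside 0.667% of all genes. Those 18 had a median range of 0.57, 15 stayed within 2-fold, and their median levels were 7.55, 7.36 and 7.34. Hair germ had Cdk1 at 8.76, 7.86 and 7.76. Of 21 ribosome biogenesis genes, 5 were above 0, beside 4011 of 7796 genes, with a median difference of -0.28, beside 0.012. None of them was 2-fold apart, and Fbl (fibrillarin) read 9.38, 9.81 and 8.79. Rps6, a ribosomal protein with many processed copies in the genome, read 8.35, 8.57 and 7.20. It was the 1 of 21 ribosomal protein genes that was 2-fold lower, beside 0.667% of all genes. H2ac19 and H2aj, histone H2A genes, read 8.15, 8.40 and 6.76 for H2ac19 and 10.08, 10.04 and 8.90 for H2aj.

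Clock genes and immediate early genes were read because the hour of collection was not given in the sources used here. Of 16 clock genes, none was 2-fold apart from both earlier days at P69, 13 were above 0, beside 4011 of 7796 genes, and the median difference was 0.45. Cry1, a repressor of the clock, read 6.75, 5.89 and 7.34. Nr1d1, a nuclear receptor that represses Arntl, read 4.74, 5.96 and 4.55, the reverse pattern. Bhlhe40, another clock repressor, read 5.98, 5.19 and 6.60. Of these 3 genes Nr1d1 was 2-fold apart at P56 from both other days, whereas Cry1 and Bhlhe40 were less than 2-fold apart from P43. Of 25 immediate early genes, 3 (Maff, Ccn1 and Klf2) were 2-fold above both days, beside 0.872% of all genes, and 1 (Ier5) below both, beside 0.667%. The median difference of that list was 0.25 at P69 and -0.49 for P56 against P43. Maff, a small basic leucine zipper factor, read 5.88, 5.22 and 7.49. The part of collection hour and handling in the P69 genes was not tested.

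P56 stood apart from both P43 and P69 for 20 genes (0.257%), 5 higher and 15 lower. The higher ones were Nr1d1, Pnmt, Jpt1, Prmt1 and Eef1akmt1. Pnmt, the enzyme that makes adrenaline, read 6.65, 7.72 and 6.09. Prmt1, the main arginine methyltransferase, read 7.32, 8.39 and 7.28. Among the lower ones, Col3a1 and Angptl4 have been given above, and Erdr1 read 11.74, 9.49 and 11.28. Odr4 read 7.09, 5.50 and 7.14. Klf6, Junb, Btg2 and Nr4a1, all immediate early genes, were also in this group, Klf6 at 10.43, 9.11 and 10.95.

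P43 stood apart for 6 genes (0.077%). Dclk1, a kinase that binds microtubules, read 9.77, 8.09 and 7.60. B3galt6, a glycosyltransferase of proteoglycan linkers, read 7.53, 6.47 and 6.04, and Gpx2, an epithelial glutathione peroxidase, read 6.77, 5.37 and 4.58. Cd200, a surface protein that restrains myeloid cells, read 6.77, 8.35 and 8.99. Zdhhc12 read 4.65, 5.93 and 6.09 and Pam read 5.07, 6.17 and 6.17. Steps in one direction were counted at a lower threshold, and 8 genes (0.103%) took steps of at least 1.5-fold in one direction at both P56 and P69, 6 upward and 2 downward. Tsc22d3, by its brightest probe set, and Cd200 were upward, as were Lbp, the lipopolysaccharide-binding protein, at 4.26, 5.01 and 6.50, and Sspn (sarcospan) at 4.69, 5.27 and 6.31. Gpx2 and Cpxm2, at 6.75, 6.09 and 5.39, were downward.

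Most of the P69 genes of bulge did not pass 2-fold in the other populations. Of the 68 higher genes, 6 (8.82%) were also 2-fold above both days in hair germ, where 193 genes (2.48%) were, and 3 (4.41%) in dermal papilla, where 99 (1.27%) were. The shared genes are 3.11% of the hair germ set and 3.03% of the dermal papilla set. In hair germ they were Angptl4, Cyp27a1, Errfi1, Prss22, St6galnac5 and Txnip, and in dermal papilla Ccn1, Cebpd and Ptch1. Of the 52 lower genes, 1 (Armcx2, 1.92%) was shared with hair germ, where 146 genes (1.87%) were 2-fold below both days, and 2 (Hps4 and Smarcb1, 3.85%) with dermal papilla, where 35 (0.449%) were. In bulge, one other probe set of Armcx2 ran the opposite way, at 0.10 and 0.31 for P69 against P43 and P56. A further one was lower, at -0.80 and -0.45, short of 2-fold. The other probe set of Smarcb1 gave -0.47 and -0.48, short of 2-fold. Txnip read 10.55, 10.75 and 12.83 in hair germ, and Hps4 read 8.37, 8.40 and 7.35 in dermal papilla.

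Some genes ran the other way in hair germ. Cst6 read 9.64, 10.28 and 10.76 there. Stfa3 read 11.70, 7.33 and 11.90 in hair germ, so its departure was a low P56 array more than a high P69 one. Nrip3 was 2.02 lower in bulge at P69, against 0.40 higher in hair germ and 0.56 higher in dermal papilla, an interaction of -2.50 (SE 0.44, limma adjusted p = 0.784). Rgcc, which regulates the cell cycle, read 9.11, 9.14 and 8.52 in bulge and 9.89, 10.44 and 12.69 in hair germ. Across all genes the limma test of the bulge P69 difference against that of the other populations called 0 genes (0.0%), with 190 at an unadjusted p below 0.05, and 1 gene (Cd24a) without the hair germ P69 array. The additive test of P69 over all populations called 0 genes (0.0%) as well, with 587 at an unadjusted p below 0.05, and its smallest p values belonged to Hsph1, a heat shock chaperone with an estimate of -1.04 (SE 0.17, limma adjusted p = 0.313), Errfi1 and Hps4.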

How the data were processed

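The authors hybridised amplified RNA to Affymetrix arrays and deposited linear intensity values per probe set, made with GCOS and MAS5 per the submitters' processing notes; versions and the scaling target are not given in the sources used here. Per the labels, 20 ng of RNA went through 2 rounds of amplification. Of 22690 probe sets, 64 controls were left out, 20380 had 1 gene, 691 several and 1555 none in the platform annotation; 20351 symbols were matched to current RefSeq names. Values became log2(signal + 16) without further scaling, 12801 probe sets were kept (above their own array's median in 3 or more arrays), and each gene was read from its brightest kept one, 7796 of 12393 genes on the array. That filter uses all populations.

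Days were compared by fold with no test, since each day has 1 array and the number of arrays limits the precision. Tests used limma 3.58.1 in R 4.3.3 with its eBayes step (mean-variance trend on); p-values were two-sided, adjusted by Benjamini-Hochberg over all genes and called below 0.05; the steps were tested on simulated data. Figures and counts used Python 3.11.15. Each population had 1 array per day, so the p-values do not measure a spread between replicate arrays, and no label ties arrays to separate animals. In the fits over several populations they rest on how differently the populations changed between days. In the fit to the bulge arrays alone they rest on the difference between P43 and P56.

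Genes named were the 12 farthest from both earlier days in each direction at P69, the 5 farthest at P56 and P43, the 4 largest steady drifts, the 6 smallest p values per test, up to 4 members per list at 2-fold (otherwise the 2 largest), all bulge markers and sort genes. Nr3c1, Sgk1, Per1, Mt1, Krt6a, Klf9, Cebpd, Zbtb16, Gli2, Bmp2 and others given as context were chosen after their values were seen. Members and lists were chosen with earlier results of these data known. Alternatives changed the pseudocount, scaling, filter, probe set rule, fold and arrays used. Promoter windows came from RefSeq (GRCm38.p6), matched by symbol for 46 of 68 higher and 39 of 52 lower genes.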

Additional observations from a re-analysis of the deposited data

How the results depend on the processing

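Counts of genes at least 2-fold apart at P69 against both earlier bulge days (68 higher, 52 lower) stayed within 1.5 times under quantile normalization, median centring, no filter, the mean of probe sets and a pseudocount of 4. A 1.5-fold threshold gave 318 and 219 and a 3-fold threshold 17 and 8. With a pseudocount of 64 there were 32 and 14, all among the main genes. For P56 against P43 (16 higher, 28 lower) the counts were 125 and 210 at 1.5-fold, 1 and 8 at 3-fold, 25 and 62 with a pseudocount of 4, and 2 and 8 with 64. For P69 against P43 (115, 87) they were 460 and 363 at 1.5-fold, 25 and 13 at 3-fold, and 49 and 36 with a pseudocount of 64. For P69 against P56 (156, 109) they were 623 and 505, 34 and 13, and 69 and 42 under the same settings.

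The limma count for bulge P69 (1 gene, Glul) was 2 after quantile normalization, where Errfi1 joined it, 0 with the mean of probe sets (Glul 2.98, limma adjusted p = 0.089) and 374 with the bulge arrays alone. Leaving out 1 hair germ or dermal papilla array at a time gave 1 to 2, the 2 without dermal papilla at P43. The test against the other populations gave 0 to 1, the 1 without hair germ at P69 (Cd24a), and the additive test 0 throughout. The melanocyte list's median was -0.22 and turned to 0.05 with the mean of probe sets; no other list with a median of at least 0.2 in size changed sign. The cause of these shifts was not tested. No paired analysis was possible because each group has 1 array and the labels give no replicate numbers; the limma fits carry day as a term across populations. Signals near the reading of 4 that a signal of 0 gives limit the folds of dim genes, and 1 array per day limits all tests.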

Other observations

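Probe sets whose names mark shared sequence (the suffixes for sets that match several transcripts or gene families) made up 7 of the 68 genes higher at P69 (10.3%) and 11 of the 52 lower (21.2%), beside 13.7% of all genes tested. Among the bulge genes higher at P69, 35 of 68 had the same sign on both days in hair germ and 8 the opposite sign, and in dermal papilla 29 had the same sign and 19 the opposite. Among the lower genes, 16 of 52 had the same sign in hair germ and 20 the opposite, and in dermal papilla 12 had the same sign and 25 the opposite. These signs were not counted over all genes, so the counts show no shared or opposed direction. The median P69 difference of all genes was itself above 0, at 0.09 in hair germ and 0.05 in dermal papilla. The core metal response letters TGCGCNC were found in 21.7% of promoters of the higher genes and 28.2% of the lower, beside 31.8% of measured genes with a promoter.

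Laptm5, a lysosomal membrane protein of leukocytes, read 7.69, 8.44 and 7.66 in bulge at P43, P56 and P69. Outside the lists, Clu, an extracellular chaperone, read 7.52, 7.49 and 8.85, and Aldh3a1, an aldehyde dehydrogenase, read 6.48, 6.46 and 7.92. Deptor, an inhibitor of mTOR kinase, read 5.97, 5.83 and 7.06, and Gabarapl1, a protein of autophagosome membranes, read 8.21, 8.36 and 9.37. The semaphorins Sema3e and Sema5a, guidance proteins of nerves and vessels, read 8.72, 9.03 and 10.25 for Sema3e and 5.95, 4.96 and 7.23 for Sema5a. Nrcam, an adhesion protein of neural cells, read 9.0, 8.82 and 7.37, and Plxna2, a semaphorin receptor, read 9.83, 9.89 and 8.76. These genes were chosen after their values were seen.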
